A study of Mus musculus with 6 samples.

Results

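Mitosis and spindle genes were examined in iKAP mouse tumour cells that the labels describe as expressing either IRF2 or GFP. The set holds 36 genes taken by name for their roles in mitosis, of 18193 genes named on the array. They were chosen with earlier results of these data known. For 35 of them at least 1 probe set named that gene alone, and all 35 lay above the intensity filter. No probe set used here named Ccnb1 alone, so that cyclin is not analysed here. The brightest probe set, by its mean over the 6 arrays, stood for each gene.

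iKAP is known as a mouse colorectal cancer model, and the labels name primary cultured cells of line #3346. Both groups carried a stable lentiviral construct, with the IRF2 open reading frame on 3 arrays and GFP on 3 control arrays. All cells grew in DMEM with a 5% tetracycline-free additive. Whether a group's 3 arrays stand for separate cultures, or the line for a single clone, is not stated in the labels. The p-values therefore measure only how these arrays vary, and that variation may be technical.

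Mitosis is driven by CDK1 bound to A- and B-type cyclins, with the Polo and Aurora kinases building the spindle around the condensed chromosomes. The spindle assembly checkpoint holds the anaphase-promoting complex in check until every kinetochore is attached. That complex, with its activator CDC20, then marks the cyclins and securin for destruction, which frees separase to cut cohesin. Transcripts of these genes peak together in G2 and M phase, so in a mixed culture they are widely read as markers of dividing cells. Intestinal tumour cells often cycle fast, and these transcripts can be abundant in them. The arrays do not measure how fast the cells used here grew.

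On these arrays the members were bright. Ube2c had the highest intensity, at 3827 ± 86.4 (SD, n = 3) on control arrays, and Cdc25c the lowest, at 143 ± 6.54 (SD, n = 3). An intensity is a linear probe set brightness in arbitrary units, comparable between arrays for the same probe set but not between genes. The array medians lay between 18.2 and 18.7. The Irf2 probe set itself read 62.6 ± 2.53 on control arrays and 36.3 ± 0.934 on the others (SD, n = 3 each; limma log2 fold change -0.79, adjusted p = 1.73e-07), against the direction of the label, so the group is called "IRF2-labelled" or "labelled IRF2" here. Keratin transcripts marked the cells as epithelial, with Krt18 at 5015 and 5306, while Vil1 and Krt20 read under 8 in both groups. Of the 6 epithelial markers tested, 3 changed by more than any member did: Cdh1 fell from 214 to 127 (log2 fold change -0.75), Epcam from 48.2 to 27.8 (-0.81), and Krt8 rose from 3533 to 4999 (0.50). The 7 immune markers summed to between 196 and 216 on control arrays and between 214.5 and 228 on IRF2-labelled arrays; Cd14 alone passed (0.18), and Ptprc read 4.48 and 4.96. Of 8 fibroblast markers Pdgfra was higher and Pdgfrb lower, with sums of 147 to 155 and 152 to 161, and of 6 endothelial markers Egfl7 alone passed, at -0.22, with sums of 98.2 to 108 and 90.4 to 103. The beta-actin ratio of the array's end-to-end RNA controls ran from 0.996 to 1.02, whereas that of the transferrin receptor was 3.61 to 3.78 on GFP control arrays and 3.81 to 4.47 on arrays labelled IRF2. The part of these marker and RNA control differences in the results below was not tested.

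Most members that changed were lower on IRF2-labelled arrays, by small amounts, and the securin transcript rose. Of the 35 members, 16 were lower and 3 higher at a limma adjusted p under 0.05, and 16 did not pass. Across all 12795 genes tested, 19.8% were lower, 16.5% higher and 36.3% changed in either direction. The members thus stood at 45.7% lower and 8.57% higher. Bright probe sets have less scatter and pass more often: among the 5899 genes at or above the level of Cdc25c, a cut-off chosen after the data were seen, 30.0% were lower and 21.5% higher. In either direction 51.5% of those genes and 54.3% of the members passed. The members' shares were not tested against these. The median log2 fold change over the members was -0.08, against a median near 0 for all genes tested (-0.00070).

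The changes were small. The called members had a median change of 0.14 in size on the log2 scale, against 0.21 for all called genes, and 2 of them, Pttg1 and Cenpa, moved by 0.25 or more; over all genes tested, 14.1% passed at that size. The arrays of a group agreed closely: the median within-group SD of a member was 0.034 on the log2 scale, against 0.058 for all genes. The arrays labelled IRF2 lay wholly below the GFP control arrays in 18 members (24.2% of all genes did so) and wholly above in 4 (22.0% of all genes, 46.2% in either direction), and the groups overlapped in 13. The member medians, as differences from the GFP control mean, were -0.10, -0.07 and -0.07 on the arrays labelled IRF2 and 0.02, -0.02 and 0.01 on the control arrays. On each array labelled IRF2, 27 of 35 members lay under that mean, but the replicate 2 GFP control array, with a smaller median shift, had 28 there, so this count does not tell the groups apart. In a bulk measurement, fewer cells in mitosis and less RNA per mitotic cell cannot be told apart.

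**Figure D1:**
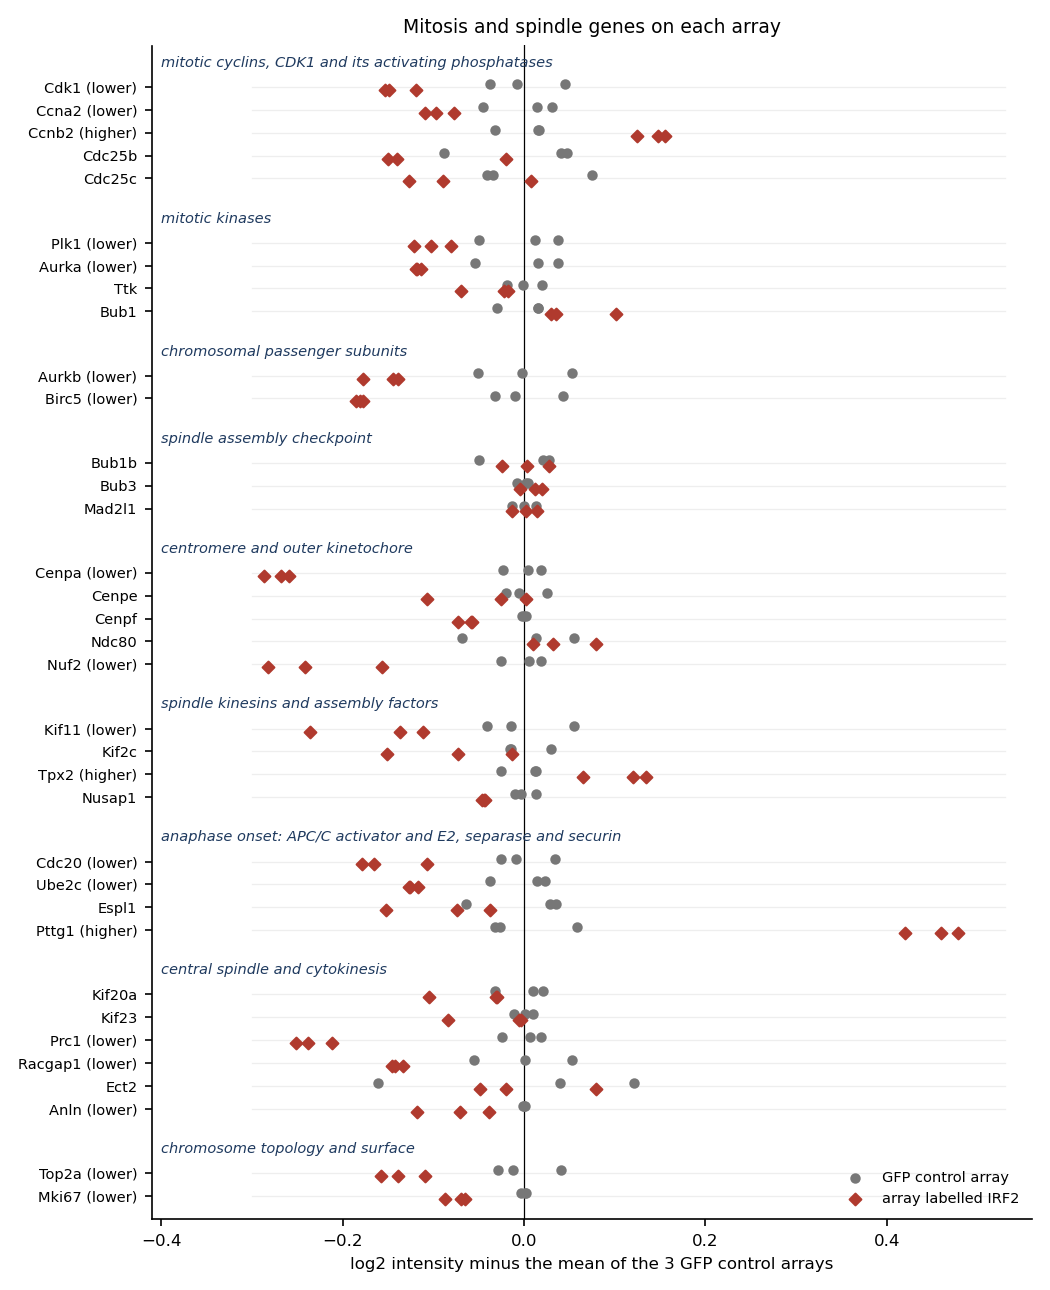
Each row is a member, grouped by role; the horizontal axis is the log2 intensity on an array minus the mean of the 3 GFP control arrays, with circles for GFP control and diamonds for arrays labelled IRF2, and "lower" or "higher" marks a limma adjusted p under 0.05. Most diamonds lie to the left of 0 by under 0.3, Ccnb2, Tpx2 and Pttg1 lie to the right, and Mad2l1, Bub3 and Bub1b lie on the control values.

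Among the cyclins and CDK1, Cdk1 and Ccna2 fell while Ccnb2 rose. Cdk1, the kinase that drives entry into mitosis, read 2134, 2014 and 2056 on control arrays and 1859, 1903 and 1865 on IRF2-labelled arrays. Every array labelled IRF2 was below every control array, and Cdk1 fell by 9.28% (log2 fold change -0.14, SE 0.02, limma adjusted p = 2.24e-04). Ccna2, the cyclin of S phase and early mitosis, went from 1621, 1538 and 1602 to 1484, 1504 and 1471 (log2 fold change -0.09, adjusted p = 0.00548). These groups also stood apart, though the gap between the nearest arrays was small. Ccnb2, a mitotic cyclin, went the other way: 1003, 970 and 1002 on the GFP control arrays against 1081, 1098 and 1104 (log2 fold change 0.14, SE 0.02, adjusted p = 2.10e-04). The 95% interval of that change, 0.09 to 0.19, did not meet that of Cdk1, -0.19 to -0.09. The CDK1-activating phosphatase genes Cdc25b and Cdc25c did not pass, at -0.10 (adjusted p = 0.101) and -0.07 (adjusted p = 0.312); Cdc25b passed without the replicate 2 GFP control array (-0.15, adjusted p = 0.0202) or without IRF2-labelled replicate 3 (-0.14, adjusted p = 0.0311).

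Of the 4 subunits of the chromosomal passenger complex that were measured, 3 fell, among them both members. Birc5, which encodes survivin and targets the complex to the centromere, read 2079, 1974 and 2004 on control arrays and 1775, 1785 and 1781 on IRF2-labelled arrays. The lower group was tightly bunched and wholly below the controls (fell by 11.8%; log2 fold change -0.18, SE 0.02, adjusted p = 1.35e-05). Aurkb, the kinase of the complex, went from 419, 433 and 450 to 384, 394 and 392 (log2 fold change -0.15, SE 0.03, adjusted p = 0.00143). The groups did not overlap. From the fixed list of further kinetochore genes, Cdca8, the borealin subunit of the same complex, fell by 0.19 on the log2 scale (SE 0.03, adjusted p = 5.35e-05), from 1424 ± 43.7 to 1249 ± 32.8 (SD, n = 3 each). Incenp, the scaffold of the complex, from the same list, did not pass, with 952 and 929 in overlapping groups (-0.03, adjusted p = 0.380).

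Of the 4 other mitotic kinases, 2 fell. Aurka, which matures centrosomes, read 825, 786 and 838 on control arrays and 751, 752 and 754 on IRF2-labelled arrays (log2 fold change -0.12, adjusted p = 0.00313). The arrays labelled IRF2 agreed to within a few units, all below the controls. Its other probe set was dim, at 7.34 and 7.86, and the mean of both gave -0.0075 (adjusted p = 0.943; range over the alternatives 5.03e-04 to 0.943). Plk1, the Polo kinase of mitotic entry and exit, went from 536, 504 and 526 to 486, 494 and 480 (log2 fold change -0.10, adjusted p = 0.0144). That call was near the threshold and was lost without the replicate 1 or replicate 3 GFP control array (adjusted p = 0.0615 and 0.0604) and without IRF2-labelled replicate 3 (0.0515). The checkpoint kinases did not pass: Bub1 lay higher by 0.06 on the log2 scale (95% interval 0.00053 to 0.11, adjusted p = 0.111), with groups that did not overlap, and Ttk lower by 0.04 (95% interval -0.11 to 0.03, adjusted p = 0.442).

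The 3 spindle assembly checkpoint members Mad2l1, Bub3 and Bub1b sat on the control values. Mad2l1, whose product binds CDC20 to stop anaphase, read 2037, 1999 and 2018 on control arrays and 2038, 2000 and 2021 on IRF2-labelled arrays. The groups overlapped completely, and the 95% interval of the log2 fold change, -0.04 to 0.04, did not reach the change of Cdk1. Bub3, a scaffold of the checkpoint, gave 0.01 (95% interval -0.04 to 0.05, adjusted p = 0.785), and Bub1b, which encodes BubR1, gave 0.0023 (95% interval -0.07 to 0.07, adjusted p = 0.969). These 3 members are as bright as others that fell, Mad2l1 in particular, at 2018 ± 18.9 (SD, n = 3) on the GFP control arrays. Mad1l1, whose product recruits MAD2 to kinetochores and which is no member, read 60.4, 67.3 and 63.3 on control arrays and 49.6, 41.9 and 45.8 on arrays labelled IRF2, and fell by 0.48 on the log2 scale (adjusted p = 9.81e-05).

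At the centromere the largest fall of all the members was found. Cenpa, the histone H3 variant that marks centromeres, read 2108, 2069 and 2129 on control arrays and 1746, 1723 and 1757 on IRF2-labelled arrays. The groups lay far apart for their spread (fell by 17.1%; log2 fold change -0.27, SE 0.02, adjusted p = 8.19e-08), although 779 of all genes tested had a larger fall. Nuf2, a subunit of the NDC80 complex that grips microtubules, went from 316.5, 314 and 307 to 257, 264 and 280 (log2 fold change -0.23, SE 0.04, adjusted p = 1.84e-04). The partner subunit Ndc80 did not follow, at 0.04 (95% interval -0.05 to 0.13, adjusted p = 0.489). The 2 intervals did not meet, that of Nuf2 running from -0.31 to -0.15. Cenpf, a large coiled-coil protein of the outer kinetochore, lay below the controls on each array labelled IRF2 but did not pass (-0.06, adjusted p = 0.089). Cenpe, the kinetochore kinesin, did not pass in its brightest probe set (-0.04, adjusted p = 0.339).

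Spindle motors and assembly factors were split. Kif11, the kinesin that pushes spindle poles apart, read 264, 247 and 252 on control arrays and 235.5, 216 and 231 on IRF2-labelled arrays (log2 fold change -0.16, SE 0.04, adjusted p = 0.00613). Tpx2, which activates Aurora A on spindle microtubules, rose from 791, 770 and 790 to 860, 852 and 820 (log2 fold change 0.11, SE 0.03, adjusted p = 0.00469). The groups of both genes stood apart, in opposite directions. The Tpx2 call was lost in the mean over its 4 probe sets (0.11, adjusted p = 0.0652; range over the alternatives 0.00214 to 0.0652). Aurka, the kinase that Tpx2 acts on, was among the genes that fell. Kif2c, a kinesin that strips microtubule ends, lay lower by 0.08 without passing (adjusted p = 0.0737); it passed without IRF2-labelled replicate 3 (-0.11, adjusted p = 0.0148). Nusap1, a microtubule-bundling protein gene, gave -0.04 (adjusted p = 0.141), with all 3 arrays labelled IRF2 below the controls.

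Genes of anaphase onset held the largest change in the set. Pttg1, which encodes securin, the inhibitor of separase, read 766, 719 and 722 on control arrays and 984, 1012 and 1025 on IRF2-labelled arrays. The lowest array labelled IRF2 was far above the highest control (1.37-fold; log2 fold change 0.45, SE 0.03, adjusted p = 1.17e-08). Across all genes tested, 323 rose by more. Espl1, the separase gene, did not pass (-0.09, 95% interval -0.17 to -0.0026, adjusted p = 0.104), but passed without the replicate 2 GFP control array (-0.12, adjusted p = 0.0337). The activator Cdc20 fell from 2626, 2521 and 2550 to 2267, 2288 and 2383 (log2 fold change -0.15, SE 0.02, adjusted p = 1.25e-04). Ube2c, the ubiquitin-conjugating enzyme of the anaphase-promoting complex, fell from 3865, 3729 and 3889 to 3504, 3509 and 3529 (log2 fold change -0.12, SE 0.02, adjusted p = 1.61e-04). In both genes the groups did not overlap. Pttg1 RNA thus rose on the same arrays on which Cdc20 and Ube2c RNA fell. The complex marks securin protein for destruction, and no protein was measured here.

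In the central spindle and cytokinesis group 3 of 6 members fell. Prc1, which bundles the antiparallel microtubules of the midzone, read 749, 727 and 742 on control arrays and 627, 638 and 621 on IRF2-labelled arrays (fell by 14.9%; log2 fold change -0.23, SE 0.03, adjusted p = 3.78e-06). After Cenpa this was the second largest fall among the members, with a wide gap between the groups. Racgap1, the centralspindlin GTPase-activating protein gene, went from 821, 762 and 792 to 717, 715.5 and 721 (log2 fold change -0.14, SE 0.03, adjusted p = 0.00113). The other bright probe set gave -0.09 (adjusted p = 0.112). The Racgap1 call was lost in the mean over its probe sets (-0.07, adjusted p = 0.168, range over the alternatives 2.28e-04 to 0.168). That mean takes in a dim probe set below the filter, at 3.28 on control arrays and 3.27 on IRF2-labelled arrays. Kif23, the kinesin of centralspindlin, gave -0.03 (95% interval -0.09 to 0.03, adjusted p = 0.427), so the 2 partners differed in whether they passed, and their intervals, that of Racgap1 being -0.20 to -0.08, met. Anln, the actin-binding anillin gene, went from 1797, 1796 and 1794 to 1655, 1710 and 1748 (log2 fold change -0.08, adjusted p = 0.0165). The control arrays nearly coincided while the others spread, and the call was lost without the replicate 3 GFP control array (adjusted p = 0.0546) or the replicate 1 array labelled IRF2 (0.0898). Kif20a, a midzone kinesin gene, did not pass (-0.05, adjusted p = 0.153). Ect2, the exchange factor that switches on RhoA at the cleavage site, had the widest spread of the members. It read 794, 965 and 912 on control arrays and 858, 875 and 937 on IRF2-labelled arrays, a full overlap (0.0037, 95% interval -0.11 to 0.12, adjusted p = 0.970).

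The proliferation markers Mki67 and Top2a both fell. Mki67 encodes the Ki-67 protein that coats mitotic chromosomes and is used in pathology to count cycling cells. It read 1531, 1533 and 1527 on control arrays and 1441, 1463 and 1458 on IRF2-labelled arrays, and fell by 4.98% (log2 fold change -0.07, SE 0.02, adjusted p = 0.00975). The groups were close yet did not overlap, since the control arrays differed by only a few units. Top2a, the topoisomerase that untangles sister chromatids, went from 2065, 2041 and 2142 to 1930, 1891 and 1867 (log2 fold change -0.14, SE 0.02, adjusted p = 2.59e-04). Without the intensity trend in the variance model the calls of Mki67, Ccna2, Plk1, Anln and Tpx2 were lost (adjusted p from 0.0530 to 0.129), which left 12 members lower and 2 higher.

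Other probe sets of the same genes gave a reading of the same RNA that the brightest probe set did not use. The 35 members had 73 probe sets, of which 62 lay above the filter and 11 were dim. Fitted one by one, 29 of the 62 were lower and 5 higher, and 28 did not pass. The 62 include the brightest probe set of each of the 35 members, counted above as 16 lower and 3 higher. These counts are therefore no separate reading, and in part repeat the result above. Over all 23041 probe sets fitted, 17.2% were lower and 14.0% higher. Of the 20 members with several probe sets above the filter, 3 had probe sets of both signs, Ttk, Cenpf and Tpx2, and 0 were called in both directions. Cdc20 had 3 probe sets at -0.15, -0.16 and -0.18, all past the threshold. The second bright probe set of Pttg1 rose by 0.42 (SE 0.04, adjusted p = 2.38e-06), from 336 to 449, and its dimmest, at 24.7 and 27.3, gave 0.15 (adjusted p = 0.269). Prc1 gave -0.23 and -0.20, and Aurkb -0.15 and -0.22.

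Some members differed more in their dimmer probe sets. Cenpa gave -0.27 at 2102 and -0.59 (SE 0.07) at 103 on the GFP control arrays, and Top2a -0.14 at 2083 and -0.33 (SE 0.05) at 120.0. Cenpe, which did not pass in its brightest probe set, was lower by 0.33 (log2 fold change -0.33, SE 0.05, adjusted p = 2.07e-04) in the other, at 219.5. In the mean of its 2 probe sets Cenpe passed (-0.19, adjusted p = 0.00139; range over the alternatives 0.00139 to 0.836). Kif2c likewise passed in its 2 other bright probe sets, at -0.10 in each (adjusted p = 0.00722 and 0.0199). The dimmer probe sets of Cenpf went opposite ways. The one at 62.4 on control arrays passed at -0.22 (adjusted p = 0.0338). The one at 21.6 did not pass, at 0.23 (adjusted p = 0.0571). For Kif11, a dimmer probe set did not pass (-0.055, adjusted p = 0.408), while another did (-0.15, adjusted p = 0.0263). Which part of a transcript each probe set reads is not stated in the labels or files.

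**Figure D2:**
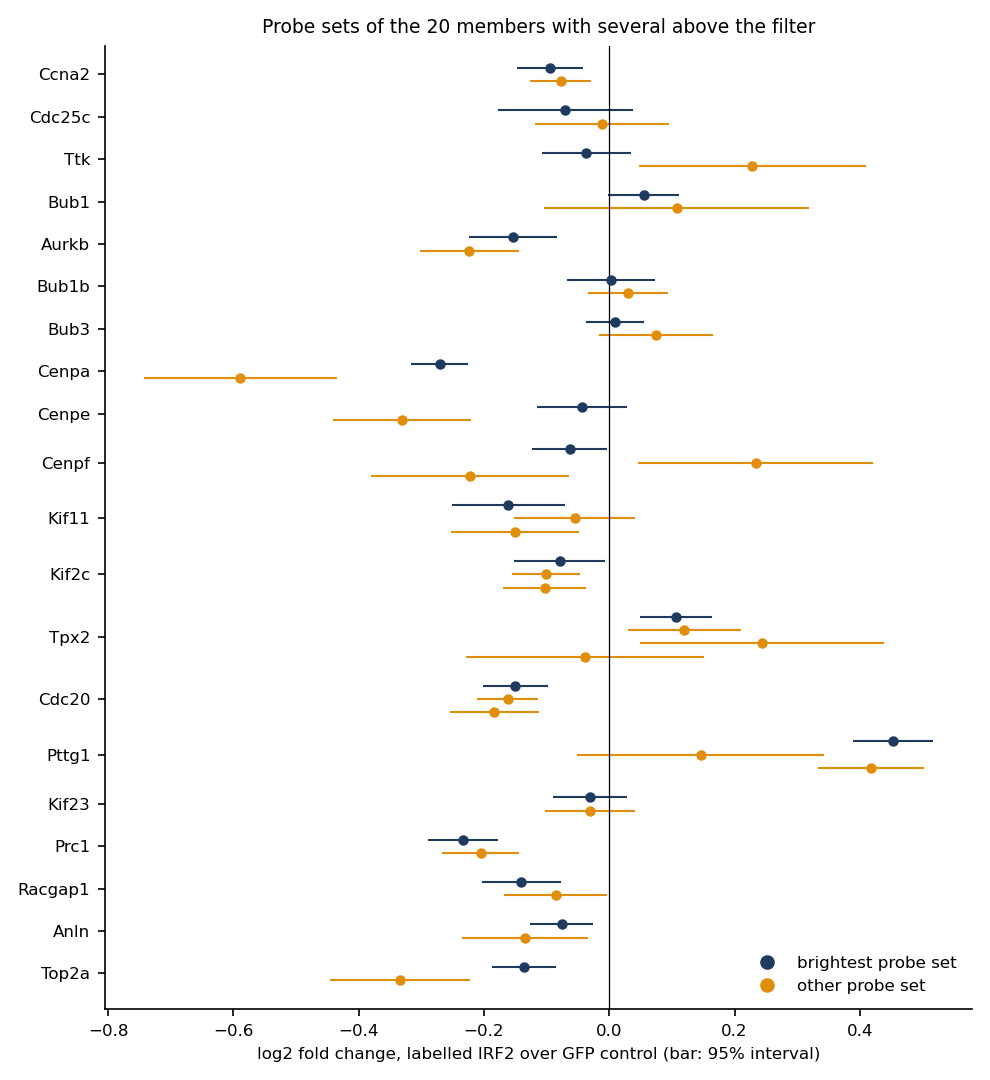
Each point is a probe set above the filter of the 20 members that had several; the horizontal axis is the log2 fold change, labelled IRF2 over GFP control, with its 95% interval as a bar, dark for the brightest probe set and orange for the others. The points of Cdc20, Prc1 and Aurkb lie left of 0, 3 of the 4 Tpx2 points and all 3 of Pttg1 lie right of it, and Cenpa, Cenpe and Top2a show a dimmer probe set farther left than the brightest.

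The promoters of the members shared sequence features that the choice of genes did not use. Genes of G2 and M phase are known to be controlled by the DREAM and MuvB complexes through the cell cycle genes homology region (CHR), often with CCAAT boxes bound by NF-Y nearby. RefSeq promoter windows (GRCm38.p6) of 300 bases, from 250 before the annotated start to 50 after it, were matched by gene number to 30 of the 35 members; Aurkb, Ccna2, Cdc25c, Kif20a and Tpx2 had none in the table used. For 5 of the 30, the start that the table used lay over 250 bases inside the outermost annotated end of the gene: Cdc25b, Aurka and Ect2 by 0.512, 0.316 and 0.375 kb, Pttg1 by 1.48 kb and Kif2c by 3.85 kb. The windows of these 5 genes therefore do not cover their outermost start. CHR letters in the inner windows of Aurka, Cdc25b, Ect2 and Kif2c are counted below. The letters searched, on both strands, were TTTGAA and TTCGAA for the CHR, CCAAT for the CCAAT box, and TTGGCGC and TTCGCGC for an E2F-type site, whose opposite strand can overlap a CCAAT box. A match is a run of letters, not a shown binding site.

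The windows of 4 members are printed from 180 bases before the annotated start to 25 after it, 5′ to 3′ on the gene's strand, with the matched letters in capitals. They are those of the 2 largest falls (Cenpa and Prc1), the rise of Ccnb2, and Cdk1, so that members that went opposite ways can be set side by side. Their positions are chr5:30666706-30666910 (plus strand), chr7:80294271-80294475 (plus strand), chr9:70421530-70421734 (minus strand) and chr10:69352888-69353092 (minus strand).
Cenpa: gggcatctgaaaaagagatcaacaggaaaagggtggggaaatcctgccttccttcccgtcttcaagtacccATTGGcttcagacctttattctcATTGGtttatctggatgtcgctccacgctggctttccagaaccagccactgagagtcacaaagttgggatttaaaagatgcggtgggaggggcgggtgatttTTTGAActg
Prc1: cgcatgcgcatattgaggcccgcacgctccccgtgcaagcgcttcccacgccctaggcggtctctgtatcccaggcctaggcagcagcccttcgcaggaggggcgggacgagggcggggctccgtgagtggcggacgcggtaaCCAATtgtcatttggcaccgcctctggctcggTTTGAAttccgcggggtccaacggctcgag
Ccnb2: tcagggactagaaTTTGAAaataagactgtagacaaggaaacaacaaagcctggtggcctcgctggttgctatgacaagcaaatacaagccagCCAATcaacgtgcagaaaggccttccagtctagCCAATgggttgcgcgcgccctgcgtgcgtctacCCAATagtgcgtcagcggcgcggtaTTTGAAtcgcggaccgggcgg
Cdk1: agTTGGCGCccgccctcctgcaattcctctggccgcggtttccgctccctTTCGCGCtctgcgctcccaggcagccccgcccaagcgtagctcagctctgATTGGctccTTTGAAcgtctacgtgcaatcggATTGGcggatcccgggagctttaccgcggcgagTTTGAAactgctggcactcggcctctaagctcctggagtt

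Cenpa, which fell, has TTTGAA at positions 17 to 22 after the start and ATTGG, the opposite strand of CCAAT, at -109 and -86. Prc1 has CCAAT at -37 and TTTGAA from -5 to 1. Ccnb2, which rose, holds CHR and CCAAT letters as Cenpa, Prc1 and Cdk1 do: CCAAT at -87, -54 and -21 and TTTGAA at 5 to 10, with another at -167. Cdk1 has TTTGAA at -71 and -15, ATTGG at -80 and -48 (and at -208, before the printed part), and both E2F-type forms, at -178 and -130. Nuf2 and Birc5, which also fell and are not printed, have neither CHR nor CCAAT letters in their windows.

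Over the whole set, 24 of the 30 members (80.0%) had CHR letters in a window, against 21.7% of all 27025 genes of the promoter table and 16.3% of the 10336 tested genes with a window. CCAAT letters were in 22 (73.3%), against 42.4% of the tested genes, and both in the same window in 21 (70.0%), against 6.66%. The related lists described below also held these letters. CHR letters were in 61.5% of the other spindle genes, 57.1% of condensin and cohesin genes and 50% of the other kinetochore genes. They were in 38.9% of the G2/M regulators and 25% of the anaphase-promoting complex genes. CCAAT letters were in 37.5% to 66.7% of the genes of the related lists, and both in 6.25% to 46.2%. Of the 37 CHR matches in member windows, 67.6% lay within 50 bases of the start, against 25.2% of all matches. Bub3, Ect2 and Prc1 each had 2 overlapping windows, so their sites are counted in both. E2F-type letters were rare, in 3 members (Cdk1, Mki67 and Ect2), or 10.0%, against 7.98% of the tested genes. By their change on the arrays, CHR letters were in 12 of the 14 members that fell, in 11 of the 14 that did not pass, and in Ccnb2, which rose. Birc5, Cenpe, Mad2l1, Nuf2 and Nusap1, whose windows lie at the outermost start, had no CHR letters there, and neither did the inner window of Pttg1.

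**Figure D3:**
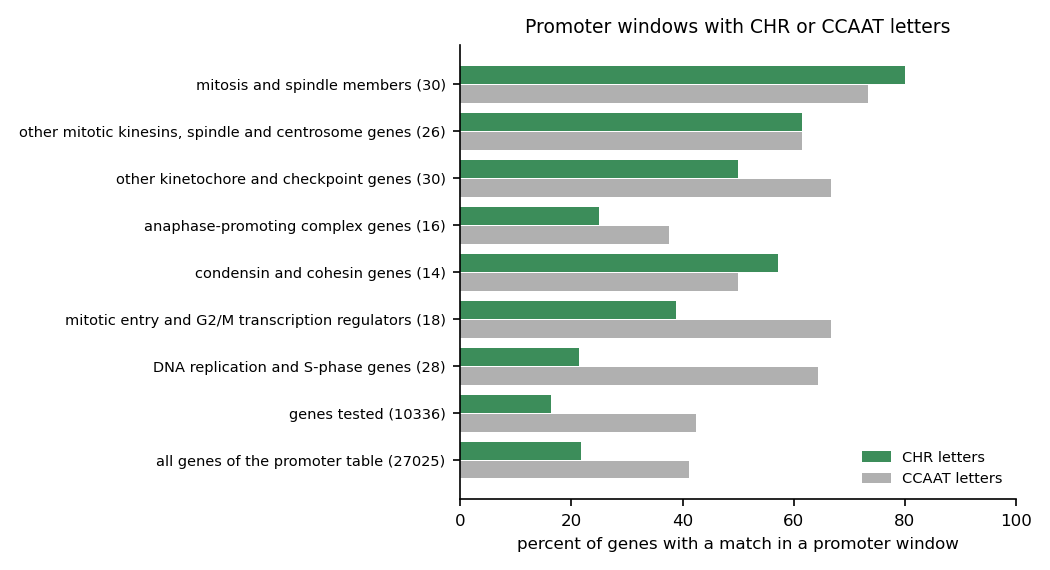
Bars give the percent of genes with a RefSeq promoter window that holds CHR letters (green) or CCAAT letters (grey), for the members, 6 lists of related genes, the tested genes and all genes of the table, with the number of genes in brackets. The members have the longest green bar, at 80.0%, followed by the other spindle genes (61.5%), condensin and cohesin genes (57.1%) and other kinetochore genes (50%). The DNA replication list stands at 21.4% and the tested genes at 16.3%.

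Further mitosis genes from 5 lists were read in the same fit. Of 124 tested, 44 were lower (35.5%) and 9 higher (7.26%), with a median of -0.06. Over all genes tested 19.8% were lower and 16.5% higher, and the shares of the lists were not tested against these. The listed genes were brighter, with a median level of 317 against 118 for all genes tested. Among the 5899 genes at or above the level of Cdc25c, 30.0% were lower and 21.5% higher. Other mitotic kinesins, spindle and centrosome genes leaned most to lower values, with 15 of 29 lower (51.7%) and 1 higher (Numa1, 0.16). Tacc3, a spindle protein recruited by Aurora A, went from 749 ± 4.99 to 536 ± 19.9 (SD, n = 3 each), a larger fall than that of any member (log2 fold change -0.48, SE 0.03, adjusted p = 6.93e-09). Haus3, an augmin subunit, fell by 0.32 and Cep55, an abscission factor gene, by 0.29 on the log2 scale. Of the other kinetochore and checkpoint genes 9 of 34 were lower (26.5%) and 2 higher (5.88%). Cenpn, which reads the CENP-A nucleosome, fell by 0.33 and Spc25, of the NDC80 complex, by 0.24.

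The anaphase-promoting complex moved in both directions, with 7 of 17 genes lower (41.2%) and 5 higher (29.4%). Cdc16 fell by 0.19 (SE 0.02), while Anapc4 rose by 0.23 (log2 fold change 0.23, SE 0.03) and Anapc5 by 0.16 (SE 0.02). Of 19 condensin and cohesin genes 7 were lower (36.8%) and 1 higher (5.26%). Stag1 fell by 0.21, Pds5b by 0.24 and the condensin core gene Smc2 by 0.16. Of 25 regulators of mitotic entry and of G2/M transcription, 6 were lower (24%) and 0 higher. That share lower was near the 19.8% over all genes tested. Melk fell by 0.36, Cdc25a by 0.23 and Pbk by 0.20. Foxm1, the forkhead factor that drives many of the members, gave 0.04 (SE 0.04, adjusted p = 0.540), and Mybl2, which works with the MuvB complex, fell by 0.16 (SE 0.04, adjusted p = 0.00887).

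DNA replication and S-phase genes, the most similar neighbouring group, had 19 of 35 lower and 1 higher, with a median of -0.09. The 3 with the smallest p were Cdt1 (-0.40, SE 0.02), Slbp (-0.37, SE 0.02) and Mcm5 (-0.29, SE 0.02), each with a larger fall than Cenpa. The largest fall of that list was that of Tyms (-0.41, SE 0.09), its dimmest gene, at 40.5 on control arrays and 30.5 on IRF2-labelled arrays. With that SE, the order of Tyms and Cdt1 is not settled. The share lower, 54.3%, and that of the members, 45.7%, were not tested against each other or against the 19.8% over all genes tested. Their CHR letters were rarer, in 6 of 28 genes (21.4%).

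**Figure D4:**
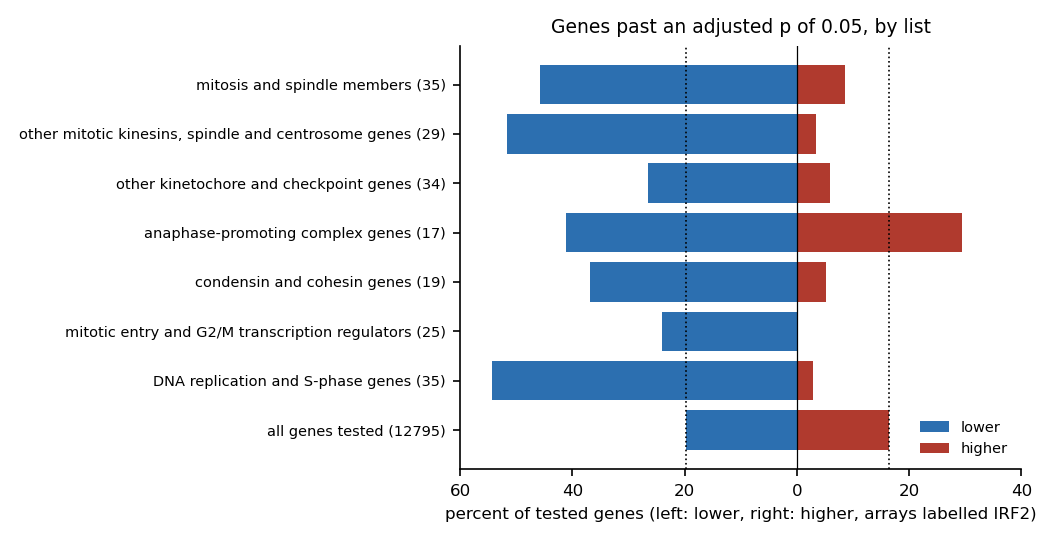
Bars give the percent of tested genes past a limma adjusted p of 0.05, lower to the left and higher to the right on IRF2-labelled arrays, for the members and 6 related lists, with the number of genes in brackets; dotted lines mark the shares over all genes tested, 19.8% and 16.5%. Each list reaches past the left dotted line, and the anaphase-promoting complex alone reaches past the right. Brighter genes pass more often: 30.0% were lower among those at or above the level of Cdc25c. The other kinetochore genes (26.5%) and the G2/M regulators (24%) lie under that share.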

How the data were processed

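Total RNA of 6 cell samples, 3 per group by their titles, was measured on Affymetrix mouse 3′ expression arrays with a biotin label. The deposited table gives a linear intensity for each of 45101 probe sets; the submitters' processing notes name MAS5 alone, without its role or version. How the authors scaled the arrays is not stated there or in the labels. The number of arrays limits the precision.

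GEO's platform annotation supplied the gene names: 34945 probe sets had 1 symbol, 932 several and 9160 none, and 64 were array controls. Symbols of 34741 were matched to RefSeq by gene number. The brightest of a gene's probe sets stood for it, and a gene was tested if that probe set had a mean above 11.3, the 40th percentile of all probe sets but controls (12795 genes). The test was limma 3.58.1 under R 4.3.3 on log2 intensity (lmFit; eBayes with trend; group as the only term; 4 residual degrees of freedom; two-sided; Benjamini-Hochberg over all genes; threshold 0.05). The fit was tested on simulated data. Single probe sets were fitted the same way. All 36 members, the top 3 genes by p of each related list, Irf2 and markers were named by rule; Incenp, Mad1l1, Tyms, Numa1, Mybl2 and Foxm1 from those lists were named after their values were seen or for their known role. The members and lists were chosen with earlier results of these data known.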

Additional observations from a re-analysis of the deposited data

How the results depend on the processing

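The 14 alternatives were 16 added before the log, no intensity filter or one at the 60th percentile, quantile normalization, scaling to a common 2% trimmed mean, the mean of probe sets, no intensity trend, the replicate number as a block, and leaving out each of the 6 arrays. In these, the members lower numbered 12 to 18 and those higher 2 to 4, and the median over the members stayed between -0.08 and -0.06. Of the 19 called members, 12 kept their call in all 14 alternatives. Of the 16 others, 5 passed in at least 1: Bub1 with trimmed mean scaling (0.07, adjusted p = 0.0473; range over its alternatives 0.0473 to 0.426), and Cdc25b, Cenpe, Espl1 and Kif2c as given above. The sign of 6 members, of which 0 had passed, turned. With the mean of probe sets Bub3 came to -0.051, Nusap1 to 0.010 and Ttk to 0.096. That mean takes in dim probe sets below the filter, for Bub3 and Nusap1 among others. With quantile normalization Mad2l1 came to -0.015. Without 1 array Mad2l1 ran from -0.0055 to 0.0083, Bub1b from -0.022 to 0.016 and Ect2 from -0.077 to 0.064.

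Arrays of the same replicate number did not deviate together: over 12795 genes the correlations of their deviations from the group means were 0.0722, -0.0763 and -7.71e-04 for numbers 1, 2 and 3. With the replicate number as a block, 16 members were lower and 3 higher, and all 35 members kept their side of the threshold; over all genes 2537 were lower and 2141 higher, in place of 2531 and 2111. The largest call of the set, Pttg1, ran from 0.34 to 0.48 over the alternatives.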
